A study of Mus musculus with 6 samples.

Results

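The 37 genes of the mouse mitochondrial genome were followed in RNA of spinal cord cells that carry CD11b, a surface integrin of microglia and other myeloid cells. All 37 were found among the 47719 rows of the deposited table, because each has a name that begins with mt- and a locus on chromosome MT, and no row met only 1 of the conditions. They comprise 13 protein-coding genes, 2 rRNA genes and 22 tRNA genes. The mice were of the inbred Biozzi ABH strain, 3 months old, with no transgene or other allele named. One group underwent electroconvulsive seizures (ECS), in which a short electric current provokes a seizure, in 3 sessions on successive days, and was killed on the next day. Spinal cords were dissociated, myelin was removed on Percoll, and cells were picked with CD11b magnetic beads. The other group is labelled control, with naive in its description, but the protocol calls all of the mice naive and names a sham procedure for those without ECS. There were 3 libraries per group, described as biological replicates, each pooled from 5 mice; n is therefore the number of pools, and single mice cannot be seen.

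The mitochondrial genome is a small circle of DNA that is transcribed from both strands as long RNAs. Most of its tRNAs lie between the other genes, and cutting the tRNAs out of the long RNA releases the mRNAs and rRNAs. The mRNAs encode core subunits of the respiratory chain complexes I, III and IV and of the ATP synthase (complex V), and nearly all of them receive a poly(A) tail. All other proteins of the mitochondrion are encoded in the nucleus and imported.

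The sequences show how tightly these genes are packed, which bears on how reads can be divided between them. The first is the whole of mt-Atp8, which encodes a small subunit of ATP synthase, in GRCm38 at chrM:7766-7969 on the plus strand. Capitals mark the 43 bases that it shares with the start of mt-Atp6, its neighbour in the same mRNA. The next pair gives the last 30 bases of mt-Nd5 (chrM:13536-13565, plus strand) and of mt-Nd6 (chrM:13552-13581, minus strand), with capitals on the 14 bases where the genes overlap on opposite strands. The last 3 are the final 30 bases of mt-Co3 (chrM:9361-9390), mt-Nd4 (chrM:11515-11544) and mt-Cytb (chrM:15259-15288), all on the plus strand. There the capital is a lone T that begins a stop codon, and the added poly(A) tail completes it. All were read from GENCODE M21 transcripts.
mt-Atp8: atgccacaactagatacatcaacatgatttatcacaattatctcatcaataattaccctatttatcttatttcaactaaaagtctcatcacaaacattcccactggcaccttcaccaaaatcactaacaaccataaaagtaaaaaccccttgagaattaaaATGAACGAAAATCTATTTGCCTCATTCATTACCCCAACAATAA
mt-Nd5: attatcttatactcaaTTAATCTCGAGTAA
mt-Nd6: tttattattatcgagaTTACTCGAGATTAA
mt-Co3: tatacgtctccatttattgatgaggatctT
mt-Nd4: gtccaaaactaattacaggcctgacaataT
mt-Cytb: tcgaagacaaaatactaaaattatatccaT

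The unit of the table is FPKM (sequenced fragments, divided by transcript length and scaled to library size), so each level is per length. The sources used here do not give the lengths that were used, which limits any comparison between different genes. Control 3 had the smallest FPKM sum (729831) and control 2 the largest (1009665). Read numbers cannot be had from this unit. All 7 microglia markers listed were above 0 in every library, with sums from 7200 to 9716 FPKM in control and from 5697 to 8757 in ECS. Erythroid markers summed to between 2231 and 77284 FPKM, oligodendrocyte markers to between 62.7 and 197, endothelial markers to between 13.4 and 62.5, astrocyte markers to between 3.77 and 7.71, and neuron markers to at most 0.628, with 2 of 4 at 0 throughout. Neutrophil markers summed to 10201 to 18860 FPKM in control and 7696 to 9449 in ECS, without overlap. However, of the 6 markers only Ngp had groups without overlap, beside 7.49% of all genes that averaged 1 FPKM or more. In such bulk samples fewer cells of a type and less RNA per cell cannot be told apart, and the part of these cells in the mitochondrial values was not tested.

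All 13 mitochondrial mRNAs were above 0 in every library, and all 24 rRNA and tRNA genes were listed at 0 in every library. The rRNA genes are mt-Rnr1 and mt-Rnr2, which encode the RNAs of the small and large subunit of the mitochondrial ribosome. Their lengths in the annotation are 955 and 1582 bases, which is within the range of the mRNAs, 204 to 1824 bases. The tRNA genes are 59 to 75 bases long. The zeros went with the annotated type of gene: 0 of 6102 rows of small and structural RNA types were above 0 in any library, among them 1507 snoRNA, 1383 snRNA, 2199 miRNA and 354 nuclear rRNA rows, against 14552 of 21618 protein-coding rows (67.3%). Both the rRNA share and the tRNA share of each library were therefore 0, no ratio of rRNA to mRNA could be compared between groups, and a value of 0 here does not show that these RNAs were absent from the cells.

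Mitochondrial mRNAs made up 22.1% of the summed FPKM on average over the 6 libraries. The share was 19.2, 26.5 and 20.03% across control pools 1, 2 and 3, against 23.6, 21.5 and 21.5% across ECS pools 1, 2 and 3. The control libraries spanned the whole range of the ECS libraries. The mean was 21.9% ± 4.003 for control pools and 22.2% ± 1.21 for ECS pools (SD, n = 3 each), a difference of 0.255 percentage points. A two-sided exact permutation test gave p = 1.00, where 0.1 is the smallest p that 3 against 3 can give. With Benjamini-Hochberg adjustment over the 3 summed measures that held values it was also 1.00. Control 2, the library with the highest share, also had the highest summed FPKM. Single libraries set the sign of this difference. Without control replicate 2 it was 2.55 percentage points (exact permutation p = 0.1, again the smallest possible). Without control replicate 1 or control replicate 3 it was -1.10 or -0.693 (exact permutation p = 0.8 for each). Without ECS replicate 1 it was -0.442. Haemoglobin genes, which also enter the total, held 0.270 to 8.48% of it as listed, and their part in the shares was not tested. Of these genes, Hba-a1 and Hba-a2 were listed at 0 in control 2, control 3, ECS 1 and ECS 2. In those libraries Hbb-bs was at 16524 to 73251 FPKM, beside 156 in control 1 and 619 in ECS 3. The cause of these zeros was not tested. With the haemoglobin genes left out of the total the difference was 0.825 percentage points.

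**Figure D1:**
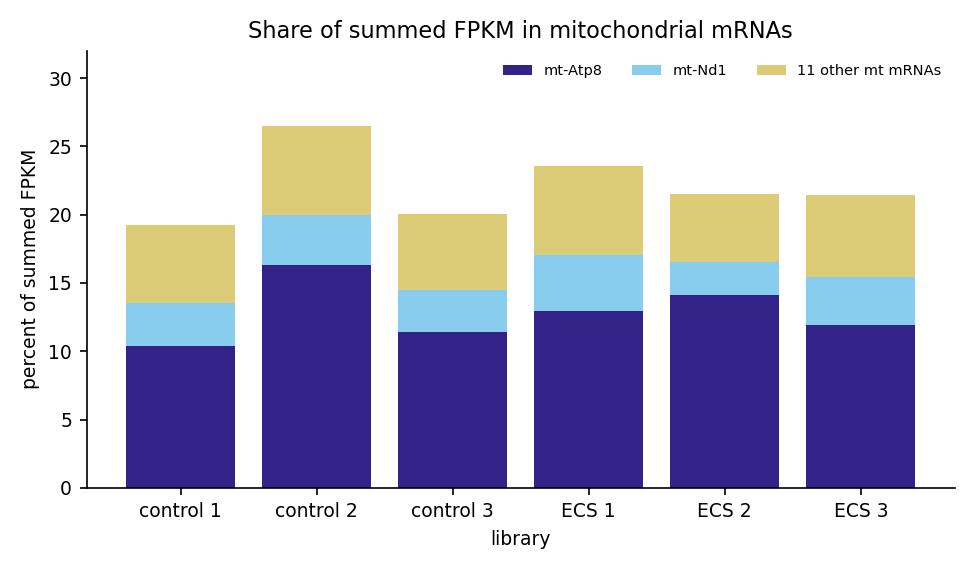
Share of each library's summed FPKM (percent) in mt-Atp8, mt-Nd1 and the 11 other mitochondrial mRNAs, as stacked bars for the 6 libraries. The bars reach 19.2 to 26.5%, and mt-Atp8 is the largest piece in each library.

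A single gene, mt-Atp8, held most of this share. It stood at 85765, 164895 and 83048 FPKM across control pools 1, 2 and 3, against 120255, 125485 and 105676 across ECS pools 1, 2 and 3. This was the highest value of any row in every library. The ECS values lay inside the span of the control values. It made up between 54.2 and 65.5% of all mitochondrial FPKM. Its neighbour mt-Atp6, which encodes the ATP synthase subunit that carries the proton channel with the c-ring, lies in the same mRNA, yet its FPKM was 22.4 to 40.8 times lower. The table assigns mt-Atp8, mt-Atp6 and mt-Co3 to a single locus (MT, 7766 to 9390).

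The length of mt-Atp8 goes into its FPKM. It is the shortest of the 13 at 204 bases, and the sources used here do not give the length that was used for it. Among 7 nuclear protein-coding genes with 1 transcript of under 300 bases and a value above 0, the highest mean was 112 FPKM. Their median was 8.05 FPKM, while longer genes of this kind had medians of 0.421 to 2.14 FPKM by class of length. In the mitochondrial genome mt-Nd4l, with 297 bases, had a mean of 1844. The part of length in the level of mt-Atp8 was not tested. When FPKM was multiplied by annotated length, mt-Atp8 made up a mean of 20.6% of the mitochondrial sum over the 6 libraries and mt-Nd1 24.7%. In ECS 2 the order was turned, with mt-Atp8 at 25.8% and mt-Nd1 at 20.96%. Without mt-Atp8 in the numerator and in the total, mitochondrial mRNAs held 9.83, 12.2 and 9.76% across control pools 1, 2 and 3, against 12.2, 8.64 and 10.8% across ECS pools 1, 2 and 3. The difference was then -0.0422 percentage points (exact permutation p = 0.9).

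The mRNAs of complex I, the NADH dehydrogenase at which electrons from NADH enter the chain, spanned the widest range of levels after mt-Atp8 was set aside. The highest was mt-Nd1, whose subunit lies near the ubiquinone site, at 25760, 36434 and 22622 FPKM across control pools 1, 2 and 3, against 37472, 21696 and 31229 across ECS pools 1, 2 and 3. Among the 13 mitochondrial mRNAs it ranked directly after mt-Atp8 in all 6 libraries. The proton-pumping membrane subunit genes mt-Nd4, mt-Nd2 and mt-Nd5 followed.

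In control 1, 2 and 3, mt-Nd4 was at 8935, 13944 and 9071 FPKM, and in ECS 1, 2 and 3 at 13546, 8659 and 11090. The mt-Nd2 gene gave 8561, 12807 and 6446 FPKM across control pools, against 9685, 7758 and 9039 across ECS pools. The mt-Nd5 gene gave 3574, 3887 and 2979 FPKM, against 4445, 3249 and 3866. In all of these, control 3 or ECS 2 was the lowest library and control 2 or ECS 1 the highest, so each group held both high and low values.

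The short membrane subunit gene mt-Nd4l, which shares 7 bases with mt-Nd4 and is carried in the same mRNA, was at 1633, 2480 and 1536 FPKM across control pools 1, 2 and 3, against 1702, 1322 and 2391 across ECS pools 1, 2 and 3. Its FPKM was thus 4.64 to 7.96 times below that of mt-Nd4. Per length, both pairs of genes that share an mRNA were therefore at unequal levels in the table.

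The lowest levels were those of mt-Nd3 and mt-Nd6, both complex I subunit genes. In mt-Nd6 the values were 225, 239 and 199.6 FPKM across control pools 1, 2 and 3, against 245, 227 and 219 across ECS pools 1, 2 and 3. It is the only 1 of the 13 on the minus strand and the mRNA that varied least over the 6 libraries, with a coefficient of variation of 7.07% against 14.2 to 62.4% for the others. Relative to the other 12 mRNAs its FPKM came to 0.142, 0.0895 and 0.137% across control pools 1, 2 and 3, against 0.112, 0.118 and 0.115% across ECS pools 1, 2 and 3. The groups overlapped (two-sided exact permutation p = 0.8, adjusted p = 1.00 over the 3 summed measures). The sources used here do not say whether strand was used in counting, so its reads cannot be told from those of RNA from the opposite strand. Poly(A) RNA was selected for the libraries, and the part of this selection in the level of mt-Nd6 was not tested.

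Cytochrome b, the subunit of complex III encoded by mt-Cytb, was at 12432, 14900 and 7984 FPKM across control pools 1, 2 and 3, against 12771, 10195 and 12755 across ECS pools 1, 2 and 3. The ECS values again lay within the control span. For complex IV, cytochrome c oxidase, mt-Co1 encodes the catalytic subunit with the site where oxygen is reduced. Its values were 5620, 8871 and 6280 FPKM across control pools, against 8870, 6705 and 7195 across ECS pools. The gene of the subunit that takes electrons from cytochrome c, mt-Co2, was at 1650, 2622 and 1329 FPKM across control pools, against 2645, 2053 and 1834 across ECS pools.

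The third subunit gene of complex IV, mt-Co3, was at 732, 1074 and 657 FPKM across control pools, against 1239, 759 and 937 across ECS pools. Per length, the mRNAs of this complex therefore stood in the order mt-Co1, mt-Co2, mt-Co3 in all 6 libraries. The ATP synthase gene mt-Atp6 was at 3040, 4761 and 3684 FPKM across control pools 1, 2 and 3, against 5358, 3077 and 3798 across ECS pools 1, 2 and 3. Its groups overlapped as well.

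**Figure D2:**
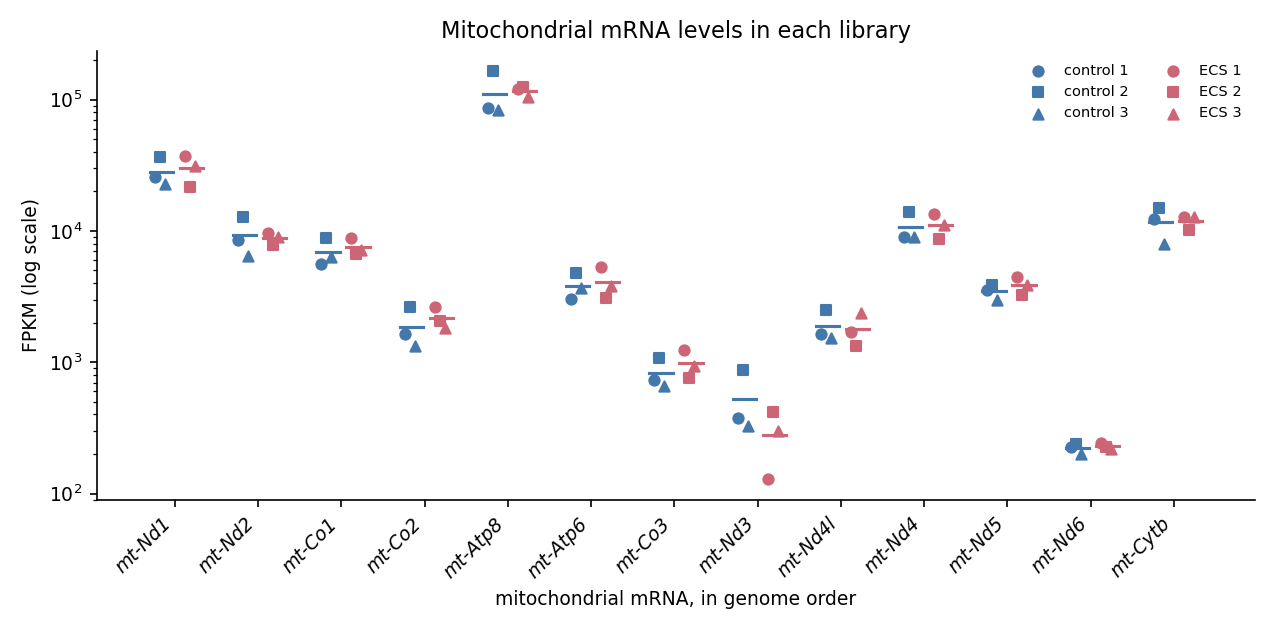
FPKM (log scale) of the 13 mitochondrial mRNAs in genome order, with 1 point per library (control blue, ECS red) and a line at each group's mean. The points of the groups overlap for all 13 genes; mt-Atp8 is highest in every library, and mt-Nd3 has the widest spread, from 128 to 873 FPKM.

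The order of the genes was almost the same in every library. The ranks of mt-Atp8, mt-Nd1, mt-Nd2, mt-Co1 and mt-Co3 did not change, and every other gene moved by 1 place at most. The places that changed hands were those of mt-Cytb and mt-Nd4, mt-Nd5 and mt-Atp6, mt-Co2 and mt-Nd4l, and mt-Nd3 and mt-Nd6. These neighbours in the order were thus not separated in these libraries. By level, control 2 was the highest library for 7 of the 13 mRNAs and ECS 1 for 6, and control 3 was the lowest for 7. The median coefficient of variation of the 13 was 23.5%, beside 23.7% for the 826 other genes that averaged 100 FPKM or more.

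After ECS no mitochondrial mRNA was called changed. The test was limma on log2(FPKM + 1), fitted over the 11315 genes that averaged 1 FPKM or more, and all 13 entered it. At an adjusted p under 0.05, 0 of 13 were called, where 0% of all genes were called in either direction. The adjusted p was 1.00 for each of them. At an unadjusted p under 0.05 there were 0 of 13, beside 3.66% of all genes, and the groups failed to overlap for 0 of 13, beside 7.49% of all genes. The estimate was above 0 for 10 and below 0 for 3, with a median log2 fold change of 0.077, beside -0.0078 for all genes. With libraries rescaled to the same total it was above 0 for 5 and below 0 for 8.

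The estimates were small for most of the genes, but the intervals around them were wide. Among complex I genes the log2 fold change was 0.086 ± 0.29 (SE) for mt-Nd1, -0.019 ± 0.28 for mt-Nd2, 0.068 ± 0.27 for mt-Nd4, -0.070 ± 0.30 for mt-Nd4l, 0.14 ± 0.21 for mt-Nd5 and 0.059 ± 0.20 for mt-Nd6. It was 0.056 ± 0.27 for mt-Cytb of complex III. In complex IV it was 0.15 ± 0.24 for mt-Co1, 0.26 ± 0.30 for mt-Co2 and 0.26 ± 0.28 for mt-Co3, and in complex V 0.15 ± 0.30 for mt-Atp8 and 0.077 ± 0.28 for mt-Atp6. The 95% interval extended by a median of 0.66 on each side over the 13 genes, or 1.58-fold, from 0.48 for mt-Nd6 to 1.24 for mt-Nd3. These intervals are not adjusted for the number of genes, so a difference would have to be larger still to pass the adjusted threshold.

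**Figure D3:**
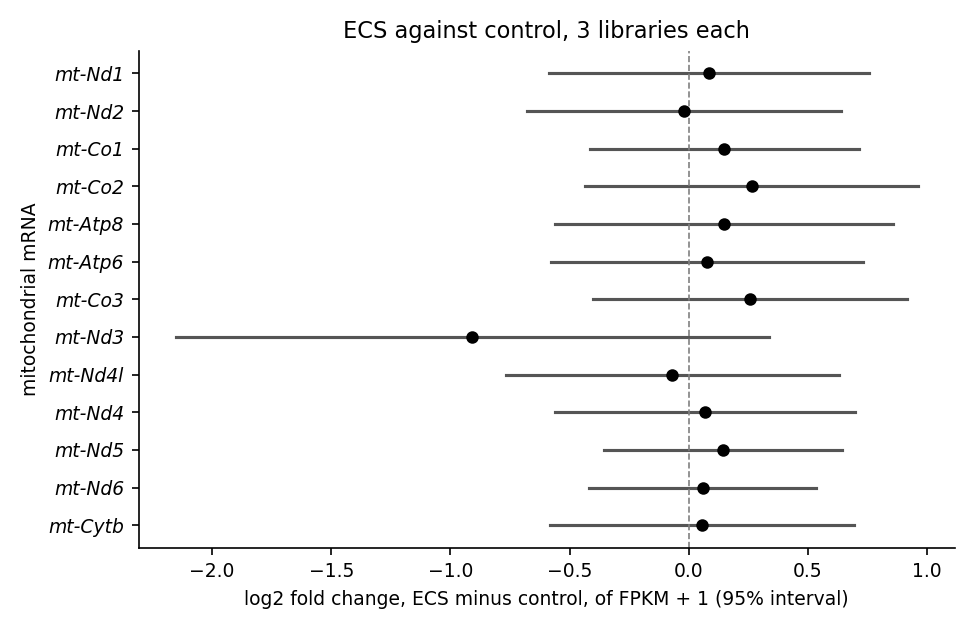
Log2 fold change of FPKM + 1, ECS minus control, for the 13 mitochondrial mRNAs (points) with the 95% interval from limma (lines), in genome order. Every interval crosses 0; mt-Nd3 has the lowest estimate, -0.91, and the widest interval.

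The largest estimate was that of mt-Nd3, whose complex I subunit contains a loop near the site of electron transfer to ubiquinone. It stood at 373, 873 and 325 FPKM across control pools 1, 2 and 3, against 128, 418 and 297 across ECS pools 1, 2 and 3. The highest value came from a control library and the lowest from an ECS library, but ECS 2 lay above control 1 and control 3. In limma the estimate was -0.91 ± 0.53 (log2 fold change and SE), the unadjusted p 0.129 and the adjusted p 1.00. Without ECS replicate 1 the log2 fold change was -0.42.

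Relative to the other mitochondrial mRNAs, mt-Nd3 was also lowest in ECS 1. As a share of the FPKM of the 12 mRNAs other than mt-Atp8, it held 0.515, 0.849 and 0.515% across control pools 1, 2 and 3, against 0.131, 0.632 and 0.351% across ECS pools 1, 2 and 3. On this measure mt-Co3 was the only 1 of the 13 mRNAs whose groups did not overlap, at 1.01, 1.04 and 1.04% across control pools, against 1.26, 1.15 and 1.11% across ECS pools. That gene was singled out after its values were seen. Beside it, 5.91% of all genes had groups without overlap when the libraries were scaled in this way. On that scale limma gave it 0.18 ± 0.24 (log2 fold change and SE) and an adjusted p of 1.00.

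**Figure D4:**
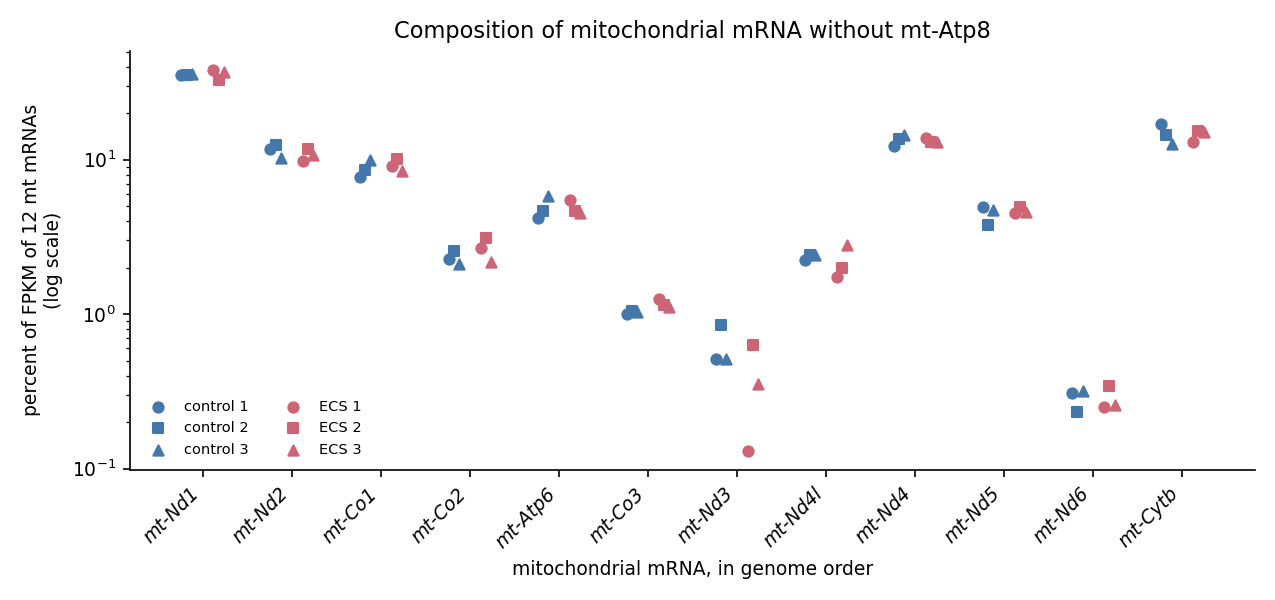
Share (percent, log scale) of each of 12 mitochondrial mRNAs in their summed FPKM, without mt-Atp8, with 1 point per library (control blue, ECS red). The share of mt-Nd1 lies between 32.8 and 38.2% in all libraries, and that of mt-Nd3 ranges from 0.131 to 0.849%.

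The nuclear genome holds copies of mitochondrial DNA, and several have rows of their own in the table. Reads from a stretch that is identical in both places cannot be assigned to 1 of them by sequence. Along chromosome 1 (GRCm38, minus strand), 7 neighbouring pseudogenes repeat the stretch from mt-Co1 to mt-Nd4. Gm28661 (chr1:24614885-24615565) matched mt-Co2 over 681 bases, Gm10925 (chr1:24613974-24614651) matched mt-Atp6 over 678 and Gm28437 (chr1:24613189-24613971) matched mt-Co3 over 783, each with 100% identity. Gm10222 matched mt-Nd4l over 294 bases and Gm28439 matched 63.6% of mt-Nd4, again with 100% identity, while Gm29216 matched 31.3% of mt-Co1 with 1 mismatch.

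The copy of mt-Nd3 in this stretch, Gm28438, differs from it at 1 of 345 bases. The difference is T3C, with positions counted from 1 at the 5′ end of mt-Nd3 and the mitochondrial base first. The first 33 bases of both are shown because the rest of the aligned stretch is identical; the capital is the base that differs, at chrM:9459-9491 on the plus strand and chr1:24613087-24613119 on the minus strand.
mt-Nd3: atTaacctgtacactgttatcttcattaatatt
Gm28438: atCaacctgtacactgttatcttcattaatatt

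The genes with a near-identical copy over nearly their whole length had a lower median level than those with none, though their ranges overlapped. The 5 mRNAs matched over nearly their whole length at 99% identity or more (mt-Co2, mt-Atp6, mt-Co3, mt-Nd3 and mt-Nd4l) had mean levels from 403 to 3953 FPKM, with a median of 1844. The 2 matched in part, mt-Co1 and mt-Nd4, had 7257 and 10874 FPKM. The 5 with no such row other than mt-Atp8 ranged from 226 (mt-Nd6) to 29202 FPKM (mt-Nd1), with a median of 9049. Of these, mt-Nd2 and mt-Nd5 had rows at lower identity, Gm13339 (96.7%) and Gm4076 (95.2%). The part of the nuclear copies in these levels was not tested. No row matches mt-Atp8 over 200 bases or more, but its last 43 bases, shared with mt-Atp6, are also found in Gm10925. Gm10925 and Gm28661 are 233 bases apart, and mt-Atp6 and mt-Co2, between which mt-Atp8 lies, are 230 apart. The nuclear bases in that gap were not read here.

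**Figure D5:**
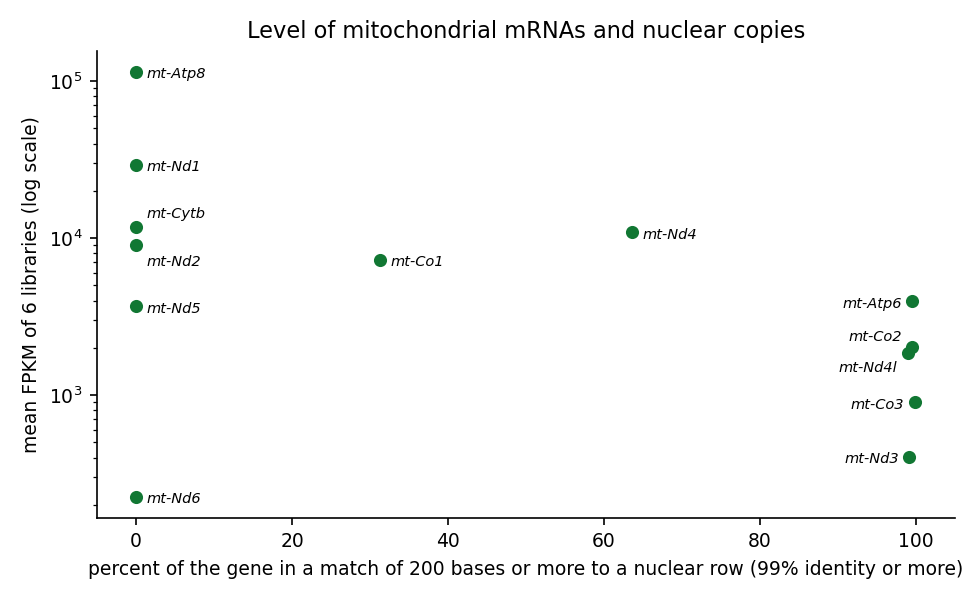
Mean FPKM over 6 libraries (log scale) of the 13 mitochondrial mRNAs against the percent of each gene that lies in a match of 200 bases or more to an annotated nuclear row at 99% identity or more. The 5 genes matched over nearly their whole length lie at 403 to 3953 FPKM, and 4 of the 6 genes at 0% lie above them. A gene at 0% has no match of that length at that identity. Shorter matches can exist, as in mt-Atp8, and so can matches at lower identity, as in mt-Nd2 and mt-Nd5.

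Each nuclear copy averaged less than the mitochondrial gene that it matches. The 11 rows matched at 95% identity or more summed to 737 to 1269 FPKM per library, 0.457 to 0.625% of the mitochondrial sum. The highest was Gm13341 on chromosome 2, which matches mt-Co2 at 95.9% identity and averaged 345 FPKM, above the mean of mt-Nd6. It gave 205, 301 and 256 FPKM across control pools, against 569, 294 and 446 across ECS pools, and the groups overlapped (unadjusted limma p 0.0412, adjusted p 1.00). Beside it lies Gm13340, a copy of mt-Co1 with a mean of 106 FPKM. The 6 listed copies that averaged 1 FPKM or more (Gm28437, Gm28438, Gm28439, Gm28661, Gm29216 and Gm10925) summed to 277 to 567 FPKM per library, 0.158 to 0.263% of the mitochondrial sum. Of these, Gm10925 was at 119, 238 and 49.7 FPKM across control pools 1, 2 and 3, against 216, 57.6 and 215 across ECS pools 1, 2 and 3. Gm28438, the copy of mt-Nd3, was listed at 0 in control 2, control 3 and ECS 3, and was at 16.8, 1.84 and 23.7 FPKM in control 1, ECS 1 and ECS 2. The means of the other 4 were 39.5 to 114 FPKM. Also outside the list, Gm10222, the copy of mt-Nd4l, gave 162, 302 and 84.0 FPKM across control pools, against 4.37, 126 and 45.4 across ECS pools. None of the 6 passed the limma test (adjusted p of 1.00 for each), and adding them to the numerator gave a difference in share of 0.261 percentage points, or 0.263 with all 11 rows.

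Nuclear genes that copy, transcribe, process and translate the mitochondrial genome were followed as a list of 47, all of which were found in the table and 35 of which reached a mean of 1 FPKM. Of these, 0 were called in either direction, where 0% of all genes were. Groups without overlap were found for 4 (11.4%), against 7.49% of all genes. The estimate was above 0 for 19 and below 0 for 16, and the median log2 fold change was 0.051. The median over all genes was -0.0078. By role, the estimate was above 0 for 3 of 4 genes of transcription, 2 of 6 of DNA replication, 6 of 15 of RNA processing and stability, 2 of 3 of rRNA modification and ribosome, and 6 of 7 of translation.

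Most of these regulators were at low levels. Tfam, which packages mitochondrial DNA and starts its transcription, was at 1.91, 4.61 and 6.72 FPKM across control pools 1, 2 and 3, against 1.57, 0.784 and 1.19 across ECS pools 1, 2 and 3. All ECS values lay below all control values. In limma the adjusted p was 1.00, for an estimate of -1.22 ± 0.53 (log2 fold change and SE).

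The mitochondrial RNA polymerase gene Polrmt was at 43.6, 76.6 and 3.79 FPKM across control pools, against 1.67, 108 and 93.8 across ECS pools, so that its libraries differed by far more than its groups. Tfb2m, the transcription factor that helps the polymerase open DNA, was listed at 0 in control 2 and ECS 1 and was at most 2.75 FPKM. The DNA polymerase gene Polg was at 56.5, 87.2 and 74.2 FPKM across control pools, against 36.1, 72.4 and 34.4 across ECS pools, and the groups overlapped. The helicase gene Twnk stayed under the level for testing, at a mean of 0.402 FPKM.

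The tested genes for the stability of mitochondrial mRNA did not pass either. Lrpprc, whose protein protects these mRNAs and promotes their polyadenylation, was at 3.58, 3.14 and 5.24 FPKM across control pools, against 1.76, 1.98 and 3.61 across ECS pools. Its partner Slirp was listed at 0 in 4 of the 6 libraries and at most 0.631 FPKM, and it stayed under the level for testing. Mtpap, the enzyme that adds the poly(A) tail, averaged 7.90 ± 1.52 FPKM over the control pools and 8.99 ± 0.739 over the ECS pools (SD, n = 3 each). Pnpt1, a subunit of the RNA-degrading complex, was at 2.43, 0.569 and 11.3 FPKM across control pools, against 0.0664, 1.24 and 2.10 across ECS pools.

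Mterf3, which encodes a factor for assembly of the mitochondrial ribosome, was at 14.1, 135 and 39.9 FPKM across control pools, against 531, 23.1 and 55.4 across ECS pools, with its highest value in ECS 1. The remaining 3 without overlap between groups were named after their values were seen. Elac2, which cuts the 3′ ends of mitochondrial tRNAs, averaged 5.30 ± 1.09 FPKM over the control pools and 8.85 ± 1.91 over the ECS pools. Primpol, a primase-polymerase gene, was at 3.74 ± 0.451 and 6.81 ± 0.839, and Fastk, with a mitochondrial form that acts on mt-Nd6 mRNA, at 40.6 ± 8.58 and 28.9 ± 0.634 (SD, n = 3 each). All 3 had a limma adjusted p of 1.00.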

How the data were processed

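The table holds 1 FPKM column per library, matched to samples by the column names in the labels. Per the submitters' processing notes, the authors used TopHat2, Cufflinks, Cuffnorm and GRCm38 to make the deposited FPKM. Per the labels' protocols, poly(A) RNA was selected and libraries were made with a SENSE kit. Of versions, annotation, strand use and scaling, nothing is given in the sources used here. Low values were searched for steps of whole reads (tolerance 0.1 of a step). At best 34.7% lay on a step, over all step sizes tried and all libraries. Chance gives 20% for a single step size, and more for the best of many, so these percentages cannot be compared. Depth is unknown.

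Shares are percent of a library's summed FPKM, compared by exact permutation. Genes that averaged 1 FPKM or more were tested with limma 3.58.1 (R 4.3.3) with a variance trend on log2(FPKM + 1), which understates changes of low genes. Benjamini-Hochberg adjustment ran over all genes at a threshold of 0.05. The analysis was tested on simulated data. Positions and sequences come from GENCODE M21, and nuclear copies were found with blastn 2.17.0 at 95% identity over 200 bases; figures were drawn with matplotlib 3.10.9. All mitochondrial genes were named by rule, with listed nuclear genes for transcription, replication and mRNA stability, the 3 with the largest absolute log2 fold change, and copies with a mean of at least 1 FPKM. The members and lists were chosen with earlier results of these data known. Alternatives were other pseudocounts, filters, scalings, variance models, denominators, a replicate block and each replicate left out. All p-values rest on the variation from pool to pool, which limma estimates for each gene with the help of other genes of like level. The submitters call the pools biological replicates.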

Additional observations from a re-analysis of the deposited data

How the results depend on the processing

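Genes called higher and lower numbered 0 and 0 in every alternative run, and those with unadjusted p under 0.05 numbered 339 to 557 when each replicate was left out and 260 to 492 under the others. Of 273 values for the 13 mRNAs, 247 kept their direction and 26 reversed. Many of the 247 could not reverse. Other filters, the robust fit, the fit without a trend, the replicate block and the relaxed threshold leave these estimates unchanged by design. The count is therefore no measure of stability. The direction held for mt-Nd3, mt-Nd5, mt-Co1, mt-Co2 and mt-Co3, and the lowest adjusted p was 0.874. After rescaling to equal totals, the median of all genes was -0.087. On that scale mt-Nd1 (-0.0042), mt-Atp6 (-0.013), mt-Nd4 (-0.023), mt-Nd6 (-0.031) and mt-Cytb (-0.034) reversed. So did mt-Nd1 with quantile normalization (-0.15), mt-Atp6 (-0.0050) and mt-Nd4l (0.0029) with library weights, and mt-Nd4 (-0.0061), mt-Nd6 (-0.014) and mt-Cytb (-0.018) with libraries rescaled to the sum of 12 mitochondrial mRNAs; the cause was not tested. With each replicate left out, log2 fold changes ranged from -0.089 to 0.30 for mt-Nd1, -0.25 to 0.24 for mt-Nd2, -0.088 to 0.28 for mt-Nd4, -0.29 to 0.15 for mt-Nd4l, -0.013 to 0.12 for mt-Nd6, -0.20 to 0.25 for mt-Cytb, -0.026 to 0.47 for mt-Atp8, -0.14 to 0.26 for mt-Atp6 and -1.27 to -0.42 for mt-Nd3.

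The difference in mRNA share, which is that of the whole genome since the other classes are at 0, ranged from -1.10 to 2.55 percentage points with each replicate left out. It reversed without mt-Atp8 (-0.0422), an alternative chosen after the data were seen, as were the rescaling to 12 mRNAs and the addition of 11 nuclear rows (0.263). The mt-Nd6 ratio ranged from -0.0242 to 0.00217 percentage points. Same-numbered libraries did not deviate together (correlations of -0.038, 0.097 and -0.11 for numbers 1, 2 and 3). With a replicate block there were 0 calls, mt-Nd3 had an unadjusted limma p of 0.0423 and an adjusted p of 1.00, and the difference in share was 0.255 (exact sign-flip p = 1.00, where 0.25 is the smallest possible).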
